A study of Danio rerio with 6 samples.

Results

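Ribosomes translate mRNA into protein and are built from a small and a large subunit, each made of ribosomal RNA and a set of ribosomal proteins. The proteins of the large subunit are named Rpl and those of the small subunit Rps. Because the subunits need their proteins in fixed proportions, the genes are known for similar, high expression in most tissues, and for higher expression in growing cells. The genes described here are all those of the deposited tables whose gene name begins with *rpl* or *rps* followed by a digit, with the ribosomal S6 kinases (*rps6k*) left out. The rule gave 78 of the 29978 genes, 43 with large subunit names and 35 with small subunit names.

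Hearts were dissected from zebrafish embryos of the AB line, as the sample labels give it, at 48 or 56 hours post fertilization (hpf), when the atrioventricular valve begins to form. 3 pools were sequenced at each stage, with no treatment compared, and each pool holds all the cell types of the dissected tissue. According to the methods, all animals were treated with phenylthiourea (PTU) to keep pigment from forming. The methods of the study give *myl7:EGFP* embryos, in which the *myl7* promoter marks the myocardium, and a different library kit from the labels. The comparison addressed here is which ribosomal protein mRNAs differ in level between the hearts of the 2 stages.

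Reads counted on genes numbered between 14369087 and 26942838 per pool, of which the 10 most counted genes held 24.5 to 34.0%. The myocardial gene *myl7* was present in every pool, at 33476 to 102310 normalized counts, a scale on which reads are divided by each library's size factor. All 16 myocardial markers measured were above 3 reads in every pool. A pool could be counted as a separate sample because separate pools are described. The p-values rest on the spread between these pools, which the main test takes after removing differences between the replicate numbers of the labels.

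The symbol rule was checked against the identity of the genes. It held 76 distinct symbols, since *rpl37* and *rps27.2* each stood on a pair of gene identifiers. A gene name table with Ensembl identifiers had 69 of the 78 genes, and 9 had no entry. For 2 of those matched, neither name began with the other. The *rpl37* row ENSDARG00000076360 was listed as COA1, and *rps4x* as RPS4Y2, its copy on the human Y chromosome. In addition, *rpl36a* was listed as RPL36AL and *rps26l* as RPS26. *rps19bp1* encodes a protein that binds Rps19 rather than a subunit protein, while *rpl7l1*, *rpl22l1* and *rps26l* are paralogs of subunit genes. 9 further ribosomal protein genes, such as *rplp0* of the large subunit stalk and *rpsa* of the small subunit, have symbols outside the rule and are described apart.

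All 78 genes were listed with reads in every pool and all 78 passed the filter on low counts. The gene with the fewest reads was *rps8b*, with 6 to 20 reads per pool. The authors kept uniquely aligned reads, which leaves out those shared by near-identical genes, and whether the counting used the strand is not given in the sources used here. Values of close paralogs, and of genes that overlap others, are therefore uncertain. Counts were not divided by transcript length, so levels are compared between pools and not between genes.

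In the share of counted reads that the ribosomal protein genes took together, the pools of a stage differed more from each other than the stage means did. At 48 hpf the share was 4.01, 4.31 and 2.73% in replicates 1, 2 and 3, and at 56 hpf it was 2.11, 4.99 and 4.92%. Replicate 1 was the lowest pool at 56 hpf and also the lowest of all 6, and replicate 3 was the lowest at 48 hpf. With reads treated as independent, the counting error of each share was small beside these differences. The 95% Wilson interval was 2.72 to 2.74% for 48 hpf replicate 3 and 4.98 to 5.00% for the highest. PCR reads are not independent molecules, so these intervals understate the counting error, and they do not cover the spread between pools. The mean was 3.68% ± 0.841 (SD, n = 3) at 48 hpf and 4.01% ± 1.65 (SD, n = 3) at 56 hpf. The difference of 0.322 percentage points gave p = 0.7 in a two-sided exact permutation test, where the smallest p for 3 pools against 3 is 0.1, and the adjusted p over the 2 values tested in this way was also 0.7. In bulk samples, fewer cells that express these genes and less RNA per cell cannot be told apart.

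**Figure D1:**
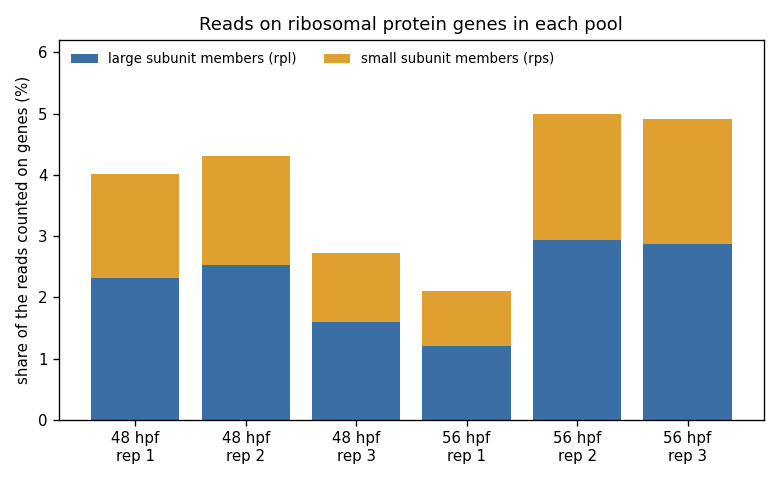
Share of the reads counted on genes (%, vertical axis) that fell on large subunit genes (blue) and small subunit genes (yellow), 1 stacked bar for each of the 6 pools. The stack reaches 2.11% in 56 hpf replicate 1 and 2.73% in 48 hpf replicate 3, and lies between 4.01 and 4.99% in the other pools.

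The subunits kept nearly the same proportion in every pool. The ratio of small to large subunit reads was 0.727, 0.706 and 0.707 at 48 hpf and 0.742, 0.701 and 0.714 at 56 hpf. Pools of both stages overlapped in this ratio, and the highest ratio was in the pool with the lowest share of ribosomal protein reads. The mean ratio was 0.713 ± 0.0119 (SD, n = 3) at 48 hpf and 0.719 ± 0.0210 (SD, n = 3) at 56 hpf, which did not differ beyond the spread (two-sided exact permutation test, p = 0.7, adjusted p = 0.7).

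No single ribosomal protein gene passed the test between the stages. The test was limma on log2(normalized count + 1), blocked by the replicate number that the labels give, with Benjamini-Hochberg adjustment over all 20805 genes tested. With an adjusted p under 0.05 as the threshold, 0 of the 78 genes were higher and 0 lower at 56 hpf, where 1.08% of all genes tested were called (0.87% higher and 0.211% lower). By an unadjusted p under 0.05, 0 were higher and 1 was lower, against 11.2% and 7.32% of all genes (18.5% in either direction). The count of genes called was also 0 by edgeR's quasi-likelihood test, edgeR's likelihood ratio test, DESeq2 and limma without the block, and the unadjusted count was 1 lower with the block and 0 without it.

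Most fitted log2 changes were smaller than their standard errors. The lowest, of *rps27.2* (ENSDARG00000055475), was larger than its error, at -0.62 (SE 0.19). All changes lay between -0.62 and 0.62, with a median of 0.16 and a median standard error of 0.40, and 64 of the 78 were above 0. The median over all genes tested was -0.01. The median was 0.12 for the 43 large subunit genes, of which 36 were above 0, and 0.18 for the 35 small subunit genes, of which 28 were above 0. The size of the median, but not its sign, depended on the scale. It was 0.28 with the deposited size factors, which moved the median of all genes to 0.11, and 0.02 with total reads as the scale, which moved it to -0.14. With the first 72 of the 78 genes were above 0, and with the second 42.

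The pools of one stage overlapped those of the other for 77 of the 78 genes. The exception was *rpl35*, a large subunit gene that was singled out after its values were seen, and which was higher in every 56 hpf pool. It makes 1.28% of the members, where 24.3% of all genes tested did not overlap (13.2% higher and 11.1% lower). *rpl35* was at 18467, 15008 and 13110 normalized counts in replicates 1 to 3 at 48 hpf and at 18734, 21914 and 20099 at 56 hpf. The lowest 56 hpf pool and the highest 48 hpf pool lay close together. Its log2 change of 0.39 (SE 0.27) had an adjusted p of 0.483 by limma with Benjamini-Hochberg adjustment.

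Within same-numbered pools, the ribosomal protein genes moved together, and in different directions in different pairs. Same-numbered pools were not alike in their deviations (correlations of 0.03, 0.19 and -0.05), so these are pairs by label only. In replicate 1, 75 of the 78 were lower at 56 hpf than at 48 hpf, with a median log2 difference of -0.95. In replicate 2, 74 were higher, with a median of 0.41, and in replicate 3, 75 were higher, with a median of 1.07. Over all genes tested the corresponding shares were 50.0, 50.1 and 50.3%. Only 1 member, *rpl35*, was higher in all 3 pairs, and only 1, the *rps27.2* row ENSDARG00000055475, was lower in all 3.

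**Figure D2:**
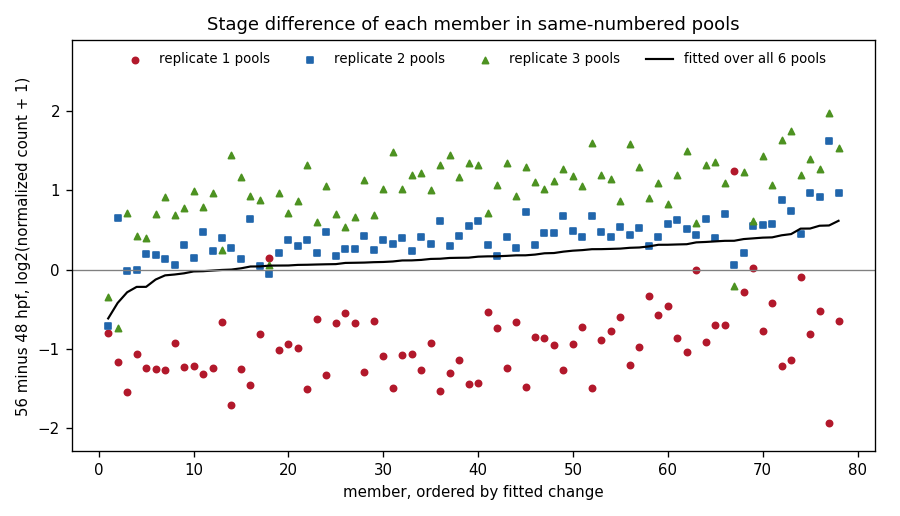
Difference between the 56 and 48 hpf pools on the log2(normalized count + 1) scale (vertical axis) for each of the 78 genes (horizontal axis, ordered by the fitted change), with red circles for replicate 1, blue squares for replicate 2 and green triangles for replicate 3, and a black line for the change fitted over all 6 pools. Circles lie below 0 for 75 genes, squares above 0 for 74 and triangles above 0 for 75, while the line runs from -0.62 to 0.62.

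Within each stage, the lowest pool was nearly always the same. 56 hpf replicate 1 was the lowest pool of its stage for 74 of the 78 genes (94.9%, against 40.9% of all genes tested) and the lowest of all 6 pools for 58 (74.4%, against 18.8%). 48 hpf replicate 3 was the lowest of its stage for 72 (92.3%, against 38.7%). The remaining 56 hpf pools, replicates 2 and 3, were the pair with the highest values of all 6 for 65 genes (83.3%, against 16.9%). Relative to the mean of each gene over the 6 pools, the median log2 level of the members was 0.05, 0.22 and -0.49 at 48 hpf and -1.005, 0.61 and 0.57 at 56 hpf.

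**Figure D3:**
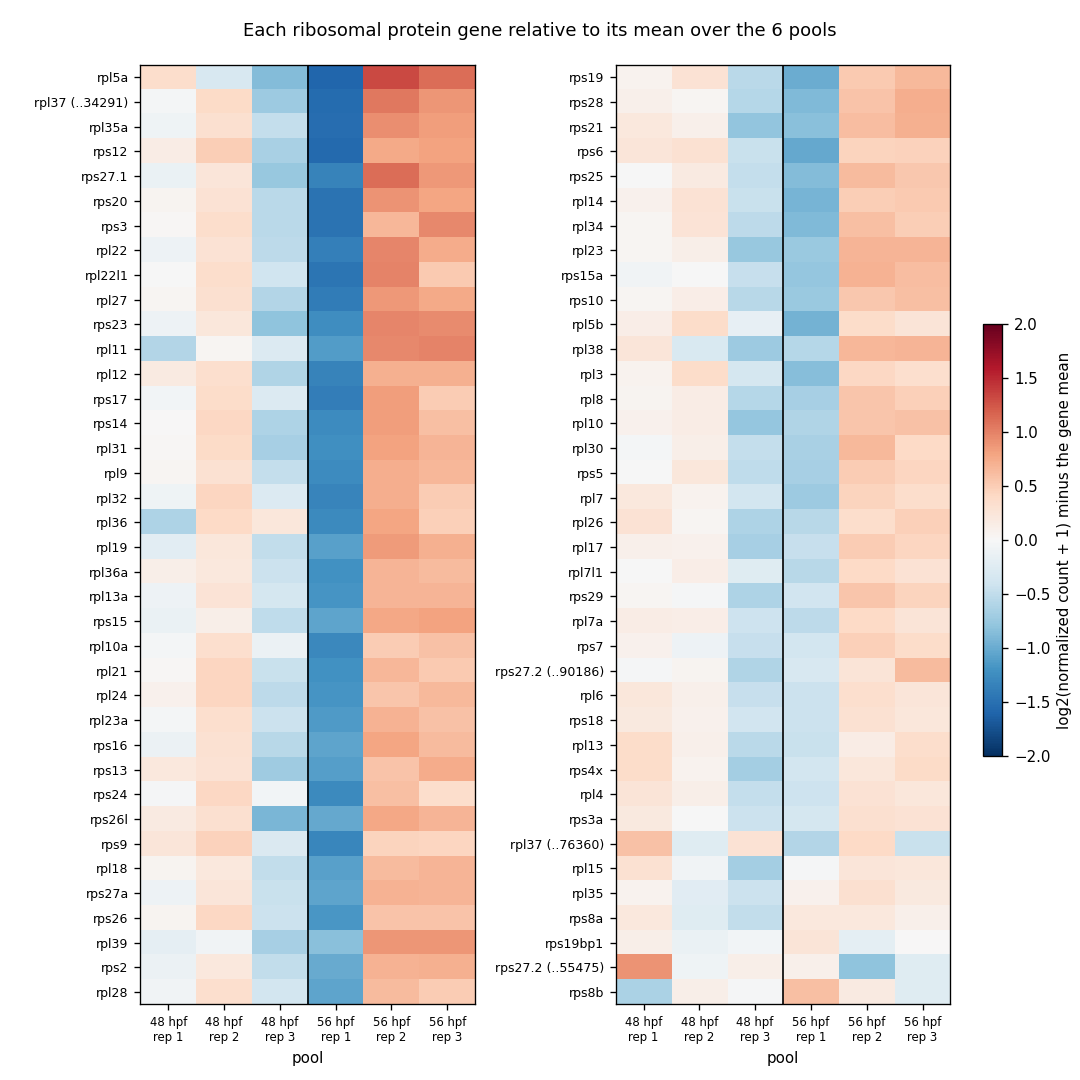
Each row is 1 of 76 ribosomal protein genes of the 78 (the others are not shown) and each column 1 of the 6 pools; the colour gives log2(normalized count + 1) minus the mean of the gene over the pools, from blue (lower) to red (higher), with a black line between the stages. Genes are ordered by how far 56 hpf replicate 1 lay below the other 56 hpf pools, from -2.80 for *rpl5a* at the top left to 0.63 for *rps8b* at the bottom right.

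The size of the deviation in 56 hpf replicate 1 varied widely among the members. Against the mean of the other 56 hpf pools it had a median of -1.60 on the log2 scale, where all genes tested had a median of -0.01. It was more than 1 lower for 57 of the 78 genes and more than 2 lower for 15, whereas 10.7% of all genes tested were more than 1 lower. The genes at the ends of this order were singled out after their values were seen. The lowest was *rpl5a*, at -2.80, then the main *rpl37* row (ENSDARG00000034291) at -2.51, and *rpl35a* was at -2.41. At the other end, *rps8a* (0.05), *rps19bp1* (0.35), *rps27.2* (ENSDARG00000055475, 0.63) and *rps8b* (0.63) were not lower in that pool, and *rps8b* rests on few reads. The second *rps27.2* row (ENSDARG00000090186) was lower there, at -0.76. In 48 hpf replicate 3 the deviation from the other 48 hpf pools was smaller, with a median of -0.63 and a range from -1.17 (*rps26l*) to 0.35 (*rpl36*). Across the 78 genes these deviations had a correlation of 0.35, given as a description, since the genes share libraries.

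Marker genes of other tissues also differed between the pools. The summed normalized counts of 16 epidermal genes (keratins and others) were 468950, 370960 and 187750 at 48 hpf and 480050, 821380 and 777430 at 56 hpf. They were thus lowest in 48 hpf replicate 3 and highest in 56 hpf replicates 2 and 3. In 56 hpf replicate 1, the lowest of all pools for 58 members, the sum lay just above the highest 48 hpf pool. The median relative to each gene's mean was 0.04 there and 0.05 in 48 hpf replicate 1. For 15 of the 16 epidermal genes (93.8%) 56 hpf replicate 1 was the lowest pool of its stage, and for 2 the lowest of all 6 (12.5%). For 13 (81.25%) 48 hpf replicate 3 was the lowest of its stage. Also for 13, 56 hpf replicates 2 and 3 were the highest pair of all 6 pools. Of the 16, 1 gene, the keratin *krt15*, was called higher at 56 hpf. The summed counts of the 16 myocardial genes were 479760, 1004900 and 1200400 at 48 hpf and 538550, 485760 and 465580 at 56 hpf, with none called. They were highest in 48 hpf replicate 3, and at 56 hpf the pools lay close together, with replicate 1 the highest. The summed counts of 15 blood genes were 61488, 78302 and 51111 at 48 hpf and 9888, 24659 and 30414 at 56 hpf, with 6 called lower and 56 hpf replicate 1 lowest. Of the other lists, 15 of 26 skeletal muscle genes and 5 of 15 cartilage genes were called higher. No epidermal, myocardial or blood marker was at 3 reads or fewer in any pool, and the part of these cell types in the levels of the ribosomal protein genes was not tested.

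The number of genes called changed when replicate 1 was left out, for the members and for all genes. With both replicate 1 pools left out, 15 of the 78 genes were higher and 0 lower (limma with the block, Benjamini-Hochberg adjustment), with a median log2 change of 0.73, where 7% of all genes were called higher and the calls over all genes, in either direction, went from 225 to 2093. Among the 15 genes were *rpl5a*, *rpl11*, *rpl22*, *rpl22l1*, *rpl35a*, *rpl37* (ENSDARG00000034291), *rpl38* and *rpl39* of the large subunit and *rps15*, *rps15a*, *rps20*, *rps23*, *rps27.1* and *rps29* of the small subunit. With 56 hpf replicate 1 alone left out and no block, 2 of the 78 were called higher, *rpl11* and *rpl39*. That share is near the 2.66% of all genes called higher, and the median log2 change of the members was 0.67. Without that pool, which was already the lowest of its stage for 74 members, 65 members were higher and 1 lower with no overlap. Of all genes, 23.2% were higher and 20.5% lower in this way. The 65 repeats the earlier count of members with 56 hpf replicates 2 and 3 as their highest pools, and is not a separate result. With any other single pool left out, 1 to 4 of the 78 members did not overlap. Over all genes tested, 15.3 to 20.1% were then higher and 13.8 to 19.3% lower without overlap. Leaving out replicate 2 or replicate 3 at both stages gave 0 calls among the members, with medians of 0.04 and -0.27. Of all genes, 0.0305% were called higher without replicate 2 and 2.09% without replicate 3.

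Among the largest fitted changes above 0 were those of the large subunit genes *rpl39*, *rpl5a*, *rpl11* and *rpl38*. *rpl39*, which encodes a small protein of the exit tunnel for the nascent chain, was at 2157, 2323 and 1545 normalized counts in replicates 1 to 3 at 48 hpf and at 1371, 4527 and 4495 at 56 hpf. Replicates 2 and 3 at 56 hpf were above all others, while replicate 1 was the lowest of all. The log2 change over the 6 pools was 0.62 (SE 0.40), with an adjusted p of 0.451 by limma with Benjamini-Hochberg adjustment.

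Rpl5 and Rpl11 bind the 5S ribosomal RNA and enter the large subunit with it, and in mammalian cells they bind and restrain MDM2 when ribosome assembly is disturbed. *rpl11* was at 2126, 3287 and 2651 normalized counts at 48 hpf and at 1475, 6225 and 6389 at 56 hpf. 56 hpf replicates 2 and 3 were alike and above all other pools. The log2 change was 0.55 (SE 0.35, adjusted p = 0.442 by limma with Benjamini-Hochberg adjustment). Leaving out 56 hpf replicate 1, the lowest pool of its stage for 74 of the 78 members, also raised the fitted change of *rpl11*. Without that pool and without the block, it was 1.25 (SE 0.23), with an adjusted p of 0.0343 by limma. In that fit 2 of the 78 members were called higher, a share near the 2.66% of all genes.

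*rpl5* is present as *rpl5a* and *rpl5b*, which differed in how far they varied. *rpl5a* was at 15531, 9765 and 6631 normalized counts at 48 hpf and at 4044, 30227 and 26227 at 56 hpf, and it was the member that lay farthest below its stage in 56 hpf replicate 1. *rpl5b* was at 14810, 17381 and 12018 at 48 hpf and at 7036, 17353 and 16065 at 56 hpf. Its pools at 56 hpf other than replicate 1 lay within the range of the 48 hpf pools, whereas those of *rpl5a* lay above it. The log2 changes were 0.56 (SE 0.72) for *rpl5a* and -0.22 (SE 0.34) for *rpl5b*, with adjusted p of 0.721 and 0.771 by limma with Benjamini-Hochberg adjustment. The ratio of *rpl5a* to *rpl5b* was 1.05, 0.562 and 0.552 at 48 hpf and 0.575, 1.74 and 1.63 at 56 hpf. It was above 1 in both 56 hpf pools with a high share of ribosomal protein reads and in 48 hpf replicate 1. Pools of both stages overlapped in this ratio (two-sided exact permutation test, p = 0.2, adjusted p = 0.4 over the 6 paralog pairs compared). The smallest p that 3 pools against 3 allow is 0.1.

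*rpl38* encodes another protein of the large subunit, and mouse Rpl38 is known for its part in the translation of *Hox* mRNAs. *rpl38* was at 1846, 1257 and 939 normalized counts at 48 hpf and at 1050, 2470 and 2474 at 56 hpf. 56 hpf replicates 2 and 3 were alike and above all other pools, and replicate 1 lay among the 48 hpf pools. The log2 change was 0.52 (SE 0.41), with an adjusted p of 0.538 by limma with Benjamini-Hochberg adjustment.

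The largest fitted changes below 0 were those of *rps27.2*, the second *rpl37* row, *rps9*, *rpl5b* and *rps24*. *rps27.2* (ENSDARG00000055475) was at 3789, 1902 and 2184 normalized counts at 48 hpf and at 2181, 1163 and 1715 at 56 hpf. It was lower at 56 hpf in every same-numbered pair, although 56 hpf replicate 1 lay between the 48 hpf pools. The log2 change of -0.62 (SE 0.19) had an unadjusted p of 0.0154 and an adjusted p of 0.164 by limma with Benjamini-Hochberg adjustment. Without the replicate block, no member was lower by an unadjusted p under 0.05. The second row of this symbol, ENSDARG00000090186, was at 137, 145 and 92.5 normalized counts at 48 hpf and at 113, 168 and 219 at 56 hpf, and its log2 change was 0.39 (SE 0.35).

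Rps27 is a zinc finger protein of the small subunit. Its other gene, *rps27.1*, was highest in the 3 pools where *rps27.2* (ENSDARG00000055475) was lowest. *rps27.1* was at 6093, 7842 and 3923 normalized counts at 48 hpf and at 2627, 14445 and 12164 at 56 hpf, with a log2 change of 0.43 (SE 0.50) and an adjusted p of 0.688 by limma with Benjamini-Hochberg adjustment. The ratio of *rps27.2* (ENSDARG00000055475) to *rps27.1* was 0.622, 0.243 and 0.557 at 48 hpf and 0.830, 0.0805 and 0.141 at 56 hpf. It was thus highest in 56 hpf replicate 1 and lowest in replicates 2 and 3 of the same stage. The pools of both stages overlapped in this ratio (two-sided exact permutation test, p = 0.8, adjusted p = 0.9). With 3 pools against 3 that test cannot give a p under 0.1.

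The *rpl37* row ENSDARG00000076360, the one listed as COA1 in the gene name table, was at 161, 90.5 and 131 normalized counts at 48 hpf and at 70.8, 142 and 78.2 at 56 hpf. Its pools did not follow those of the main *rpl37* row (ENSDARG00000034291), which was at 6603, 8824 and 4096 at 48 hpf and at 2329, 14067 and 12443 at 56 hpf. The log2 changes were -0.42 (SE 0.41) and 0.26 (SE 0.54), neither of them called. *rps9* and *rps24* encode proteins of the small subunit with a role in the processing of its RNA. *rps9* was at 7673, 8930 and 5296 normalized counts at 48 hpf and at 2612, 8794 and 8696 at 56 hpf, with a log2 change of -0.29 (SE 0.42). *rps24* was at 17569, 23777 and 17290 at 48 hpf and at 7407, 27200 and 22754 at 56 hpf, with a log2 change of -0.22 (SE 0.38). For both, 56 hpf replicate 1 was the lowest of all pools.

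The paralogs *rps26* and *rps26l* followed each other closely. Rps26 lies at the mRNA exit of the small subunit. *rps26* was at 4997, 6428 and 3560 normalized counts at 48 hpf and at 2147, 7129 and 7111 at 56 hpf, and *rps26l* was at 6356, 7032 and 2973 and at 2754, 9557 and 8947. The same pools were low for both genes, 48 hpf replicate 3 and 56 hpf replicate 1. The ratio of *rps26l* to *rps26* was 1.27, 1.09 and 0.835 at 48 hpf and 1.28, 1.34 and 1.26 at 56 hpf. Pools of both stages overlapped in it (two-sided exact permutation test, p = 0.2, adjusted p = 0.4, where the smallest p possible is 0.1). The log2 changes were -0.02 (SE 0.40) for *rps26* and 0.28 (SE 0.48) for *rps26l*.

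*rpl22* and its paralog *rpl22l1* formed the only pair of the 6 whose ratio did not overlap between the stages. In mouse, Rpl22 is known to restrain the expression of *Rpl22l1*. *rpl22* was at 6954, 9146 and 5172 normalized counts at 48 hpf and at 2882, 14635 and 12493 at 56 hpf, and *rpl22l1* was at 3569, 4603 and 2713 and at 1301, 7157 and 5184. Both genes were high and low in the same pools. The ratio of *rpl22l1* to *rpl22* was 0.513, 0.503 and 0.524 at 48 hpf and 0.451, 0.489 and 0.415 at 56 hpf, lower in all 3 pools of the later stage. The mean was 0.514 ± 0.0106 (SD, n = 3) at 48 hpf and 0.452 ± 0.0370 (SD, n = 3) at 56 hpf, with p = 0.1 in a two-sided exact permutation test, the smallest p the design allows, and an adjusted p of 0.4. The ratios of *rpl7l1* to *rpl7*, between 0.0675 and 0.0881, and of *rps8b* to *rps8a*, between 0.000344 and 0.000892, each had p = 0.9 in the same exact test.

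**Figure D4:**
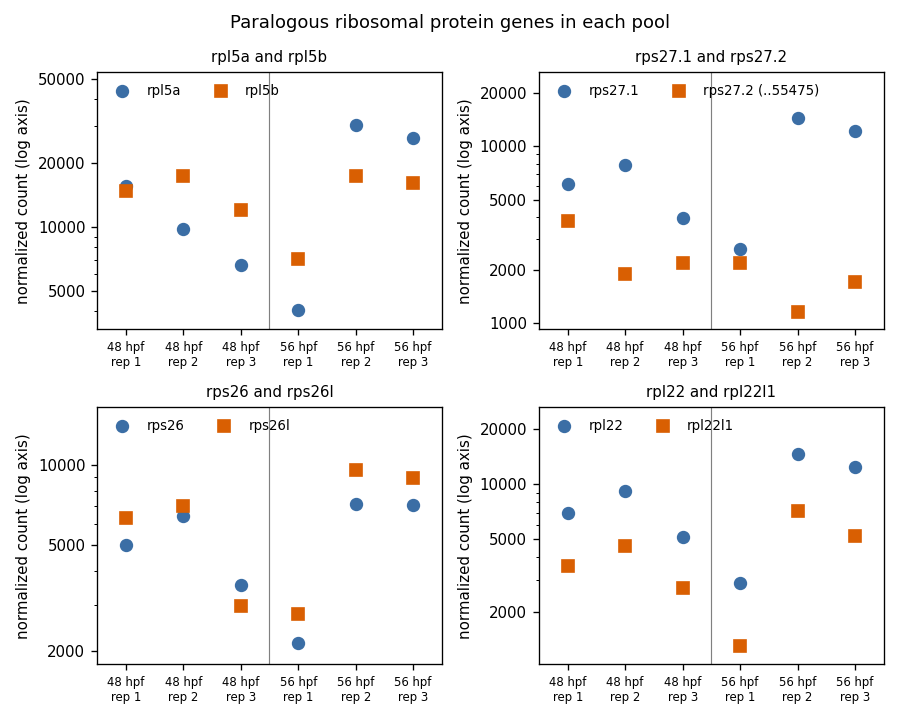
Normalized counts (log axis) of 4 paralog pairs in each of the 6 pools, blue circles for the first gene of a pair and orange squares for the second, with a grey line between the stages. The points of *rpl22* and *rpl22l1* move in parallel, with a ratio between 0.415 and 0.524, whereas the ratio of *rps27.2* (ENSDARG00000055475) to *rps27.1* runs from 0.0805 to 0.830.

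The 5 members with the highest mean normalized counts were *rps3a*, *rps4x*, *rpl4*, *rps25* and *rps8a*. *rps3a*, a small subunit gene, was at 40913, 35789 and 26541 at 48 hpf and at 28235, 44576 and 43695 at 56 hpf, and its log2 change was 0.17 (SE 0.38). *rps4x*, which bears the name of an X-linked human gene, was at 26385, 21376 and 12738 and at 15817, 24056 and 26764, with a log2 change of 0.17 (SE 0.39). In both, 48 hpf replicate 3 was the lowest pool and 56 hpf replicate 1 the next lowest, so that their order differed from that of most members. *rpl4*, which lines the exit tunnel, was at 23464, 21363 and 14197 normalized counts at 48 hpf and at 14740, 24087 and 23126 at 56 hpf. *rps25*, which is needed for initiation at some viral internal entry sites, was at 19366, 21921 and 13930 and at 10657, 30266 and 28124. Their log2 changes were 0.07 (SE 0.34) and 0.21 (SE 0.40). *rps8a* was nearly level at 56 hpf, with 22717, 22687 and 21158 normalized counts, after 22797, 16694 and 14018 at 48 hpf, and its log2 change was 0.34 (SE 0.28, adjusted p = 0.553 by limma with Benjamini-Hochberg adjustment).

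*rps19*, *rps14* and *rps6* are small subunit genes with known roles in disease or signalling. *rps19*, whose human counterpart is the gene most often mutated in Diamond-Blackfan anaemia, was at 3068, 3560 and 2002 normalized counts at 48 hpf and at 1458, 4174 and 4574 at 56 hpf. *rps14*, whose human counterpart is lost in the 5q- syndrome, was at 14499, 19156 and 9373 and at 6007, 25538 and 21870. Their log2 changes were 0.12 (SE 0.40) and 0.12 (SE 0.47). *rps6*, whose protein is the substrate of the S6 kinases, was at 10365, 10882 and 6439 normalized counts at 48 hpf and at 4304, 11949 and 12124 at 56 hpf, with a log2 change of -0.07 (SE 0.41). In all of them 56 hpf replicate 1 was the lowest pool and 48 hpf replicate 3 the lowest of its stage. *rps19bp1*, which encodes the protein that binds Rps19, did not share this order. It was at 220, 185 and 196 normalized counts at 48 hpf and at 243, 178 and 204 at 56 hpf, highest in 56 hpf replicate 1, with a log2 change of 0.05 (SE 0.23).

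The remaining members named for their paralogs or suffixes were not called either. The log2 change was -0.06 (SE 0.35) for *rpl3*, which lies near the peptidyl transferase centre, and -0.13 (SE 0.39) for *rpl10a*. It was 0.36 (SE 0.39) for *rpl10*, which joins the large subunit late in its assembly, and -0.0047 (SE 0.25) for *rpl36*. For *rpl36a*, *rpl7* and *rpl7l1* it was 0.07 (SE 0.45), 0.05 (SE 0.33) and 0.08 (SE 0.27). All of these except *rpl10* had 56 hpf replicate 1 as the lowest of the 6 pools. The adjusted p of these 7 genes lay between 0.663 for *rpl10* and 0.995 for *rpl36* (limma with Benjamini-Hochberg adjustment).

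The ribosomal protein genes with other symbols were low in the same pools as the members, but with a different order. Relative to the mean of each gene, their median was -0.63 in 48 hpf replicate 3 and -0.58 in 56 hpf replicate 1. None of the 9 was called, and their median log2 change was 0.18, with 7 above 0. *rplp2* and its paralog *rplp2l*, which encode an acidic protein of the stalk, had the largest changes, 0.56 (SE 0.50) and 0.48 (SE 0.36). *rplp2* was at 1194, 1445 and 762 normalized counts at 48 hpf and at 592, 2423 and 2913 at 56 hpf. *rplp2l* was at 15175, 12194 and 6857 and at 11126, 18749 and 16569. 56 hpf replicate 1 was the lowest pool of its stage for all 9. It was the lowest of all 6 pools for 4 of them, among them *rplp2* (44.4%, against 74.4% of the members). *rplp0*, which anchors the stalk and is a common reference gene in PCR, was at 7972, 6351 and 3944 normalized counts at 48 hpf and at 5413, 6726 and 7165 at 56 hpf, with a log2 change of 0.13 (SE 0.30).

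56 hpf replicate 1 was often the low pool for other genes of translation too. It was the lowest pool of its stage for 81.1% of the initiation factor genes tested and 79.7% of the mitochondrial ribosomal protein genes tested, against 40.9% of all genes. The share was 66.7% for elongation factor genes and 56.3% for ribosome biogenesis factor genes. Genes outside translation showed it as well: in the marker lists the share ran from 7.14% (liver and yolk) to 93.8% (epidermis). Relative to the mean of each gene, the median of the 54 initiation factor genes was -0.34 in 56 hpf replicate 1 and between -0.14 and 0.18 in the other pools, and that of the 60 mitochondrial ribosomal protein genes was -0.40 in that pool and between -0.20 and 0.27 in the others. The median of the 15 elongation factor genes lay between -0.29 and 0.15, and that of the 87 ribosome biogenesis factor genes between -0.20 and 0.20. The corresponding range over the pools was -1.005 to 0.61 for the members. The median log2 change was 0.00 for the 53 initiation factor genes tested, 0.00 for the 15 elongation factor genes and 0.00 for the 59 mitochondrial ribosomal protein genes tested. It was -0.26 for the 87 ribosome biogenesis factor genes, of which 67 were below 0. None of these lists had a gene with an adjusted p under 0.05 by limma with Benjamini-Hochberg adjustment.

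**Figure D5:**
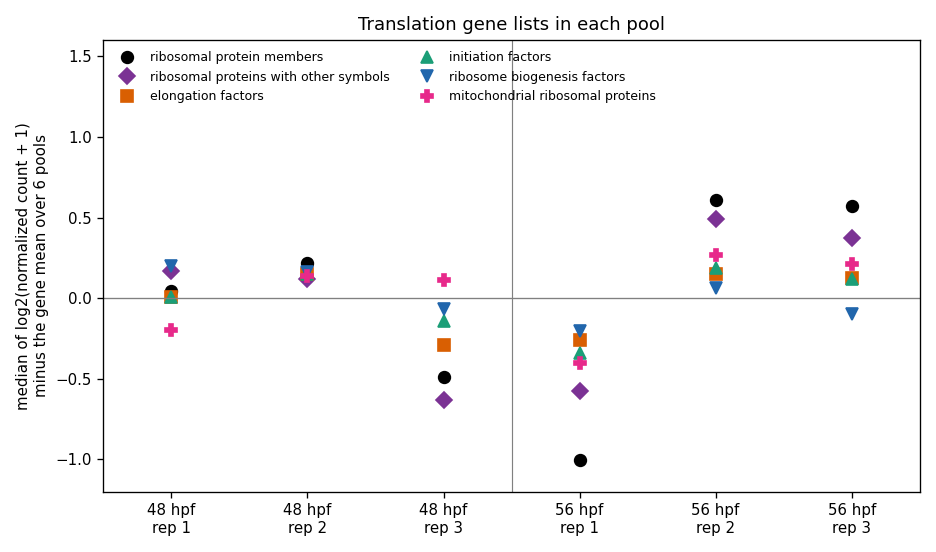
Median over the genes of each list of log2(normalized count + 1) minus the mean of the gene over the 6 pools (vertical axis), by pool, with a symbol for each of 6 lists of genes of the translation machinery. The ribosomal protein members (black circles) run from -1.005 in 56 hpf replicate 1 to 0.61 in 56 hpf replicate 2. The ribosomal proteins with other symbols (purple diamonds) run from -0.63 in 48 hpf replicate 3 to 0.49 in 56 hpf replicate 2.

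The genes at the ends of these lists were not called either. Of the elongation factors, *eef1da*, a subunit of the exchange factor for eEF1A, was at 2881, 2007 and 1596 normalized counts at 48 hpf and at 3416, 4249 and 4158 at 56 hpf. It was higher in every 56 hpf pool, and unlike the members it was not low in replicate 1 relative to 48 hpf. Its log2 change was 0.90 (SE 0.26), with an adjusted p of 0.140 by limma with Benjamini-Hochberg adjustment. *eef1a2* had 0 counts in 3 pools and is given no fold. Among the initiation factors the lowest changes were those of *eif4bb* (-0.65, SE 0.24), which stimulates the helicase eIF4A, and *eif3eb* (-0.64, SE 0.29).

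Among the biogenesis factors, 1 gene was higher and 5 were lower by an unadjusted p under 0.05, against 11.2% and 7.32% of all genes tested, and 13 (14.9%) were lower and 2 (2.30%) higher without overlap, against 11.1% and 13.2%. *tsr2*, which in yeast escorts Rps26 to the small subunit, was at 492, 515 and 532 normalized counts at 48 hpf and at 254, 353 and 288 at 56 hpf. The stages did not overlap, and 56 hpf replicate 1 was the lowest pool. The log2 change of *tsr2* was -0.79 (SE 0.21), with an adjusted p of 0.121 by limma with Benjamini-Hochberg adjustment. *nhp2*, of the small RNA-protein particles that guide pseudouridylation, was at 233, 336 and 209 and at 288, 549 and 547, with a log2 change of 0.80 (SE 0.27, adjusted p = 0.186 by the same test). Of the mitochondrial ribosomal proteins, *mrpl43* was higher in every 56 hpf pool, with a log2 change of 0.67 (SE 0.23, adjusted p = 0.189), and *mrps28* had a log2 change of -0.89 (SE 0.56), with 14.97 normalized counts in 56 hpf replicate 1 against 80.0 to 96.8 in all other pools.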

How the data were processed

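RNA of dissected zebrafish hearts was sequenced from 6 pools, 3 per stage. Per the methods, Tophat alignment to Zv9 was followed by HTSeq counting of the uniquely aligned reads on Ensembl genes. The authors deposited a signal per gene and library, which is reads over a size factor. The submitters' processing notes name CASAVA 1.8.2, Bowtie2 2.1.0, HTSeq 0.5.4p3 and DESeq 1.10.1. Divided by the smallest value above 0 of its library, 100% of the deposited values came out whole (tolerance 0.001 reads), so read counts were recovered. They were divided by size factors drawn from these 6 libraries (RLE, computed with DESeq2). The filter was filterByExpr (minimum count 10, minimum total 15), which left 20805 genes. log2(normalized count + 1), which understates changes of low counts, was tested with limma (trend) and the replicate number as a block, with Benjamini-Hochberg adjustment and a threshold of 0.05. The methods describe an adjustment for baseline differences of experiments, and reading the replicate number as the experiment was inferred here. Single values per pool were compared by two-sided exact permutation tests.

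Members and gene lists were chosen with earlier results of these data known. Genes are named for the 5 highest and 5 lowest fitted changes, the 5 highest mean counts, paralogs or paralog suffixes, known roles, and the ends of each other translation list. Marker lists of myocardium, endocardium, blood, skeletal muscle, cartilage, epidermis, liver and yolk, and neural tissue were counted: 0 of 12 endocardial, 0 of 14 liver and yolk and 0 of 14 neural genes tested were called. Gene names come from the files, and the results of 2 members are not reported here. Alternatives were TMM, the deposited scale, factors without the members, total reads, no block, edgeR's quasi-likelihood and likelihood ratio tests, DESeq2, other filters and pseudocounts, thinning and left-out pools. The software was edgeR 4.0.16, DESeq2 1.42.0 and limma 3.58.1 under R 4.3.3, and the fits were tested on simulated data. Sequences and transcript lengths were not used here.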

Additional observations from a re-analysis of the deposited data

How the results depend on the processing

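No ribosomal protein gene was called under any other setting that kept all 6 pools: TMM, the deposited scale, factors without the members, total reads, no replicate block, edgeR's tests, DESeq2, other filters and pseudocounts, and thinned counts. With pools left out the count lay between 0 and 15, and the median log2 change between -0.27 and 0.73. Chosen after seeing the data, leaving out 56 hpf replicate 1 with the block kept gave 15 called. The other replicate 1 pool is then alone in its block and adds nothing to the fitted stage difference. That fit therefore nearly repeats the one without both replicate 1 pools, and its 15 is not a separate result. Also chosen after seeing the data, edgeR's quasi-likelihood test without 56 hpf replicate 1 and without the block gave 2. All genes called numbered 225 in the fit described, 560 without the block, 522 by edgeR's quasi-likelihood test without the block, 155 by that test with the block, 1739 by its likelihood ratio test, 1499 by DESeq2, 346 without a filter and 135 with at least 10 counts in every sample. They numbered 7 without replicate 2, 639 without replicate 3 and 2093 without replicate 1. With a single pool left out and no block they lay between 56 and 1138, against 560. The cause of these differences was not tested.

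The replicate block rests on an inference. Same-numbered pools had correlations of their deviations of 0.03, 0.19 and -0.05 for replicates 1, 2 and 3, so the numbers alone did not pair the pools. Without the block the number of members called stayed at 0 and the median log2 change at 0.16, and only the replicate 2 pools matched each other best.

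The difference in share of reads lay between -0.171 and 1.27 points with a pool left out, and turned negative without 48 hpf replicate 3, 56 hpf replicate 2 or 56 hpf replicate 3; the subunit ratio difference lay between -0.00597 and 0.0145. The members without overlap numbered 3 on the deposited scale, 0 with total reads and 1 to 66 with a pool left out. The 66 came only without 56 hpf replicate 1, with 65 higher and 1 lower, against 23.2% and 20.5% of all genes. With any other single pool left out, the members without overlap numbered 1 to 4. Over all genes, 15.3 to 20.1% were then higher and 13.8 to 19.3% lower. For the deposited scale and total reads, no share over all genes is given here. With pools left out, the ribosomal proteins with other symbols had 0 to 1 genes called and the elongation factors 0 to 1. DESeq2 called 1 elongation factor, *eef1da* (0.91), and the likelihood ratio test 1 biogenesis factor, lower.

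Over 43 named genes and 23 settings, 871 of 980 combinations kept direction and call, 96 turned direction, 13 gained a call and 0 lost one. With total reads as the scale, the change was -0.068 for *rpl4*, -0.10 for *rpl22l1*, -0.070 for *rpl36a*, -0.085 for *rpl7*, -0.053 for *rpl7l1*, -0.021 for *rps19*, -0.087 for *rps19bp1*, -0.015 for *rps14* and -0.0085 for *rplp0*. On the deposited scale it was 0.061 for *rpl3*, 0.12 for *rpl36*, 0.10 for *rps26* and 0.050 for *rps6*. That of *rpl36* was 0.00074 by edgeR's quasi-likelihood test, 0.000597 by its likelihood ratio test, 0.00052 by DESeq2 and 0.0025 with thinned counts. With pools left out, the log2 changes ran from -0.79 to 0.35 for *rps9*, -0.54 to 0.21 for *rpl5b*, -0.57 to 0.37 for *rps24*, -0.16 to 1.81 for *rpl5a*, -0.11 to 0.52 for *rps3a*, -0.29 to 0.62 for *rps4x*, -0.20 to 0.74 for *rps25*, -0.25 to 0.44 for *rpl4*, -0.15 to 0.88 for *rpl10* and -0.54 to 0.49 for *rpl10a*. They ran from -0.30 to 0.98 for *rpl22*, -0.45 to 0.79 for *rpl22l1*, -0.44 to 0.37 for *rpl3*, -0.40 to 0.64 for *rpl36*, -0.43 to 0.77 for *rpl36a*, -0.28 to 0.55 for *rpl7*, -0.15 to 0.40 for *rpl7l1*, -0.43 to 0.71 for *rps19*, -0.065 to 0.16 for *rps19bp1* and -0.54 to 0.58 for *rps26*. They ran from -0.39 to 1.02 for *rps26l*, -0.17 to 1.26 for *rps27.1*, -0.043 to 0.72 for *rps27.2* (ENSDARG00000090186), -0.14 to 1.34 for *rplp2*, -0.43 to 0.82 for *rps14*, -0.57 to 0.53 for *rps6* and -0.24 to 0.47 for *rplp0*.

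The standard error of the members' log2 changes was 0.40 at the median, with 3 pools a stage. *rps8b* rests on 6 to 20 reads in a pool. Whether depth or the spread between pools limits the calls was not tested.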
